A study of Arabidopsis thaliana with 9 samples.

Results

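The terpene synthase genes described here are 10 loci of Arabidopsis thaliana, found as every probe set that the platform annotation pairs with exactly 1 gene and whose gene is one of the 10. All 10 had such a probe set, 1 each, among the 16722 probe sets with 1 gene on the array. Of the loci, 7 lie on chromosome 3 (AT3G14490, AT3G14520, AT3G14540, AT3G29110, AT3G29190, AT3G29410 and AT3G32030) and 3 on chromosome 1 (AT1G31950, AT1G33750 and AT1G66020). The set was drawn around AT3G14540, which was chosen by its lower log2 value in bHLH49-overexpressing roots than in wild type and mutant roots. The overexpressor values of the 10 members are therefore given below as a description without p-values. Their test is the mutant against wild type. For AT3G14540 itself that contrast is not free of the choice, which also used the mutant arrays. Counts of members called in the overexpressor stand beside the share of all probe sets and support nothing. For terpenoid genes outside the 10, p-values of the fit are given with some of the changes. Their lists too were chosen with earlier results of these data known.

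Terpene synthases convert linear prenyl diphosphates into the carbon skeletons of terpenes, many of which serve plants as volatile or root-borne defence compounds. Their substrates are made by prenyl diphosphate synthases from the building blocks of the mevalonate pathway in the cytosol and the methylerythritol phosphate (MEP) pathway in plastids. In Arabidopsis the terpene synthases form a large family with several clusters of neighbouring copies, and some copies sit beside prenyl diphosphate synthase genes.

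RNA came from roots of 4-day-old seedlings in the Col-0 background, grown on MS medium (one label says root tips), and 9 arrays were run, 3 per genotype: wild-type, bHLH49 mutant (called loss-of-function in the sample titles) and bHLH49 overexpressor. The bHLH49 protein belongs to the bHLH transcription factors, which bind DNA as pairs. The labels name neither the mutant allele, nor the promoter behind the overexpression, nor how many lines were used. The growth protocol names kanamycin or phosphinothricin for selecting transgenic seeds without saying which plants received it. The arrays of a genotype are numbered 1 to 3 with no word on whether each came from its own batch of plants. The p-values therefore cover the spread among these arrays only, part of which may be technical.

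Of the 8 root markers listed, all 8 had a probe set. Their wild-type means on the log2 scale included 10.58 for EXPA18, an expansin of root hairs, 10.08 for JKD, a root patterning factor, and 6.61 for AT1G65570, a root cap polygalacturonase. Of the 8 markers of green shoot tissue only RCA and LHCB4.1 had a named probe set, at 7.54 and 6.53 in wild type. The root markers moved in both directions. In the mutant 6 of the 8 were below wild type and 2 above, with log2 changes from -0.38 for UPB1 to 0.63 for AT1G65570 (median -0.17). Of the 8, 5 were free of overlap between the arrays, beside 12.4% of all probe sets, and 0 were called, beside 0.0234%. In the overexpressor again 6 were below and 2 above, from -0.27 for UPB1 to 1.57 for AT1G65570 (median -0.10). Here 4 were free of overlap, beside 19.5% of all probe sets. Only AT1G65570 was called, in the higher direction, beside 0.745% of all probe sets. The mean log2 value of the 8 ran from 8.94 to 9.03 on the wild-type arrays, 8.84 to 8.93 on the mutant arrays and 9.02 to 9.10 on the overexpressor arrays. The overexpressor mean includes AT1G65570, at a log2 change of 1.57, while 6 of the 8 markers were below wild type. The mean of the 2 shoot markers ran from 6.93 to 7.16, 7.16 to 7.25 and 7.04 to 7.16 on the wild-type, mutant and overexpressor arrays, with 0 called in either line. The part of these markers in the values below was not tested. In RNA from whole roots or root tips, fewer cells that express a gene and less RNA in each cell cannot be told apart.

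The 10 probe sets fell into 2 kinds by brightness. AT1G31950, AT1G33750 and AT3G14540 were bright in wild type, above the upper quartiles of the arrays (7.99 to 8.02 on the log2 scale). The other 7 lay below the array median (5.85 to 5.92) on all 9 arrays, with values from 2.49 to 4.85, close to the lower quartiles (3.65 to 3.70). The table holds no detection call, so whether these 7 measured a transcript or only background was not tested. Brightness depends on the probes, so these values do not rank the genes by transcript amount.

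**Figure D1:**
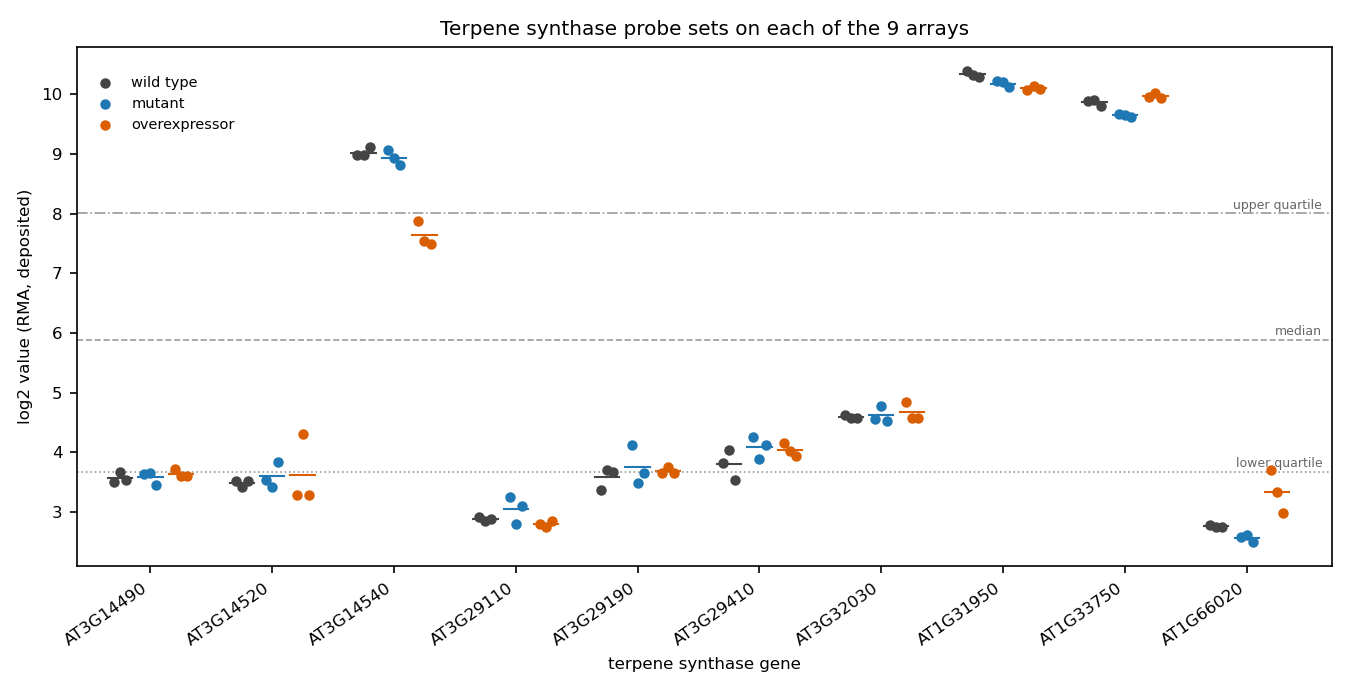
Deposited log2 values (vertical axis) of the 10 terpene synthase probe sets (horizontal axis) on each array; points are arrays, short lines are genotype means and the horizontal lines are quartiles of all probe sets. The 3 overexpressor points of AT3G14540 sit between 7.49 and 7.88, below its other 6 points, and 7 genes lie under the array median.

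AT3G14540 was the terpene synthase gene with the largest difference between genotypes. It stood at 8.98, 8.98 and 9.12 on the wild-type arrays, at 9.07, 8.93 and 8.81 on the mutant arrays and at 7.88, 7.55 and 7.49 on the overexpressor arrays, in log2 units. Wild-type and mutant values overlapped, while every overexpressor value lay below all the others, with a gap of 1.1 to the nearest wild-type array and of 0.93 to the nearest mutant array. The means for wild type, mutant and overexpressor were 9.03 ± 0.08, 8.93 ± 0.13 and 7.64 ± 0.21 (SD, n = 3). The overexpressor was thus lower than wild type by a log2 change of -1.39 ± 0.11 (SE), or 2.62-fold, and lower than the mutant by -1.29 ± 0.11, or 2.45-fold. These contrasts chose the gene, so they carry no test here.

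The mutant showed no such difference in AT3G14540. Its log2 change against wild type was -0.10 ± 0.11 (SE), with a 95% interval from -0.36 to 0.17 (limma adjusted p = 0.861). The order of the 3 genotypes was thus overexpressor lowest, then mutant and wild type, which did not differ beyond their spread. The interval leaves out a fall of the size seen in the overexpressor, but the choice of the gene also used the mutant arrays. A gene with a like fall in the mutant would not have been chosen. Nothing is therefore read from the lack of such a fall in the mutant.

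The genes beside AT3G14540 on chromosome 3 gave no like difference. AT3G14520, the nearest terpene synthase gene, lies 2 places before it in the RefSeq gene order, with AT3G14530, listed here among prenyl diphosphate synthases, between them. AT3G14520 stood at 3.52, 3.42 and 3.52 in wild type, 3.54, 3.42 and 3.84 in the mutant, and 3.28, 4.31 and 3.29 in the overexpressor. A single overexpressor array, the second, was thus the highest of the 9 while the other two were the lowest. Its log2 change in the overexpressor was 0.14 ± 0.26 (SE), and -0.20 without that array, and the mutant stood at 0.12 ± 0.26 (limma adjusted p = 0.931).

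AT3G14490, the third terpene synthase gene of that stretch, varied least of the 10, with all 9 values between 3.46 and 3.72. Its genotype means were 3.57 ± 0.09, 3.59 ± 0.11 and 3.64 ± 0.07 in wild type, mutant and overexpressor (SD, n = 3), and the arrays of the genotypes overlapped. The log2 changes were 0.02 ± 0.08 in the mutant (limma adjusted p = 0.973) and 0.07 ± 0.08 in the overexpressor (SE). Both neighbours are dim while AT3G14540 is bright, and whether their probe sets could show a change of that size was not tested. The probe sequences were not used here, and signal shared between such neighbouring copies was not tested.

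Among the 10 genes within 5 places of AT3G14540, 5 had a named probe set. Their log2 changes in the overexpressor ran from -0.44 to 0.14, and 0 of the 5 were called in any of the 3 comparisons. Of all probe sets, 0.0234% were called in the mutant against wild type. In the overexpressor 0.745% were called higher and 0.609% lower than in wild type, and 0.971% higher and 0.857% lower than in the mutant. Nothing is therefore read from the count of 0. The lowest change was that of AT3G14530, the gene directly before AT3G14540. It stood at 5.64, 5.75 and 5.82 in wild type, 5.42, 5.12 and 5.47 in the mutant, and 5.27, 5.08 and 5.53 in the overexpressor. Both lines lay below wild type on every array, by -0.40 ± 0.13 in the mutant (limma adjusted p = 0.508) and -0.44 ± 0.13 in the overexpressor (SE), measured against the same wild-type arrays. AT3G14550 (GGPS3), a geranylgeranyl diphosphate synthase gene directly after AT3G14540, had no named probe set and was not analysed here.

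**Figure D2:**
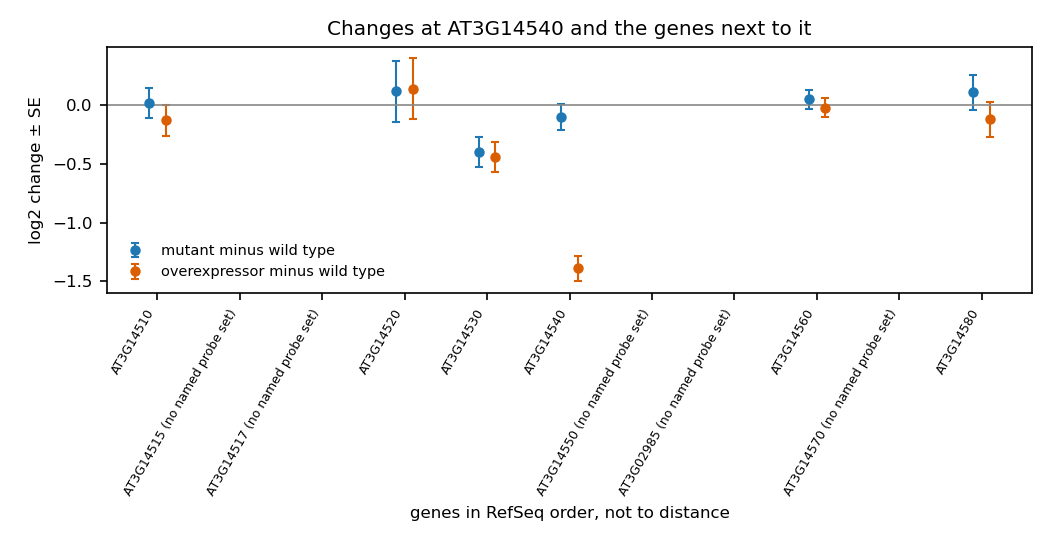
Log2 change ± SE (vertical axis) in the mutant and the overexpressor, each minus wild type, for AT3G14540 and the genes up to 5 places on either side in RefSeq order (horizontal axis, not to distance). AT3G14540 stands at -1.39 in the overexpressor, and the 5 measured neighbours lie between -0.44 and 0.14.

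The 2 other bright genes, both on chromosome 1, differed between genotypes by much less. AT1G33750 stood at 9.89, 9.90 and 9.81 in wild type, 9.67, 9.66 and 9.63 in the mutant, and 9.95, 10.03 and 9.94 in the overexpressor. No pair of genotypes overlapped, with the mutant lowest, wild type between and the overexpressor highest. The mutant was lower on 3 of 3 arrays by a log2 change of -0.21 ± 0.05 (SE; 95% interval -0.33 to -0.09), which did not pass over all probe sets (limma adjusted p = 0.403, unadjusted p = 0.00434). The overexpressor differed from wild type by 0.11 ± 0.05 and from the mutant by 0.32 ± 0.05 (SE).

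AT1G31950 had its highest values in wild type, at 10.40, 10.33 and 10.30, with 10.22, 10.21 and 10.12 in the mutant and 10.08, 10.14 and 10.09 in the overexpressor. Both lines lay below wild type without overlap, and they overlapped with each other. The mutant change was -0.16 ± 0.05 (SE; 95% interval -0.28 to -0.03; limma adjusted p = 0.52), and the overexpressor stood at -0.24 ± 0.05 against wild type and at -0.08 ± 0.05 against the mutant. Root markers moved both ways in the mutant, with 6 of the 8 below wild type, 2 above and 0 called (log2 changes from -0.38 to 0.63). Their part in the mutant differences of AT1G31950 and AT1G33750 was not tested. The tight arrays of these bright probe sets make small differences visible: the SDs within genotypes of AT1G31950 and AT1G33750 were 0.02 to 0.05.

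**Figure D3:**
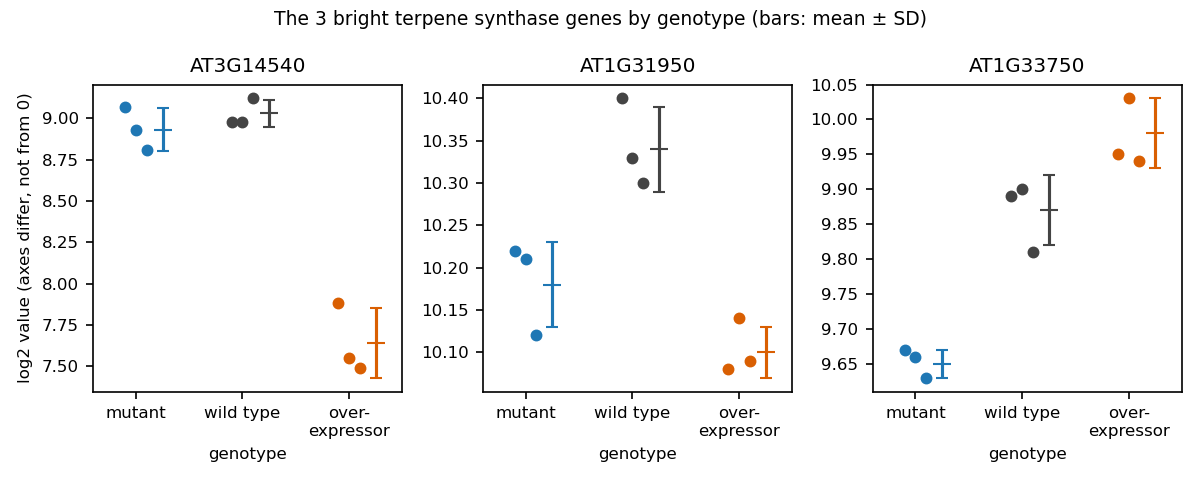
Log2 values (vertical axes, which differ between panels and do not start at 0) of the 3 bright terpene synthase genes by genotype; points are arrays and bars are mean ± SD (n = 3). AT3G14540 is low in the overexpressor only, AT1G31950 is highest in wild type, and AT1G33750 runs from the mutant (9.65) through wild type (9.87) to the overexpressor (9.98).

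AT1G66020 was dim but had the second largest range of the 10. Its values were 2.78, 2.74 and 2.75 in wild type, 2.58, 2.61 and 2.49 in the mutant, and 3.70, 3.33 and 2.99 in the overexpressor. Here too no pair of genotypes overlapped and the order was mutant, wild type, overexpressor, and 1 of the overexpressor arrays reached the lower quartile of the arrays. The overexpressor arrays spread widely (SD 0.36, against 0.02 in wild type). The log2 change was 0.58 ± 0.16 in the overexpressor against wild type and 0.78 ± 0.16 against the mutant (SE). It was -0.20 ± 0.16 in the mutant against wild type (limma adjusted p = 0.772). That SE includes the spread of the overexpressor arrays. With only the 6 arrays compared, the mutant change was -0.20 ± 0.06 (SE, limma adjusted p = 0.619).

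AT1G33750 and AT1G66020 were thus the 2 members with the order mutant, wild type, overexpressor and no overlap, an order that 0.536% of all probe sets had. The reverse order without overlap was shown by 0 of the 10 members and by 0.463% of probe sets. Both differences from wild type rest on the same 3 wild-type arrays. In AT1G33750 the gap between the nearest wild-type and overexpressor arrays was only 0.04 log2 units. The orders use the overexpressor arrays, as the choice of members did, so nothing is read from these counts.

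The remaining 4 genes, all on chromosome 3 and dim, showed overlapping genotypes. AT3G29410 had the largest log2 change of the 10 in the mutant, 0.29 ± 0.14 (SE; 95% interval -0.05 to 0.62; limma adjusted p = 0.636), with 3.82, 4.04 and 3.54 in wild type, 4.25, 3.89 and 4.12 in the mutant and 4.16, 4.02 and 3.93 in the overexpressor. AT3G29190 had a mutant change of 0.17 ± 0.17, in which the first mutant array, at 4.12, stood above the others (3.48 and 3.65); without it the change was -0.01. AT3G29110 stood at 2.88 ± 0.03, 3.05 ± 0.23 and 2.80 ± 0.06 in wild type, mutant and overexpressor (SD, n = 3). AT3G32030 stood at 4.59 ± 0.02, 4.63 ± 0.14 and 4.67 ± 0.16 in the same order.

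AT3G29410 and AT3G32030 each lie within 3 places of a gene listed among prenyl diphosphate synthases. AT3G29430, 2 places after AT3G29410, stood at -0.30 ± 0.10 in the mutant and -0.12 ± 0.10 in the overexpressor (log2 change, SE). AT3G32040, 3 places after AT3G32030, stood at 0.19 ± 0.09 and 0.17 ± 0.09. None of these 4 changes was called, and the levels of both genes were dim, at 2.52 and 2.38 in wild type.

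Counted over the 10 members, 0 were called in the mutant against wild type, where 0.0234% of all probe sets were (limma, Benjamini-Hochberg adjusted p below 0.05 over 38408 probe sets); 2 members had an unadjusted p below 0.05, AT1G31950 and AT1G33750, as did 8.44% of all probe sets. The mutant and wild-type arrays were without overlap for 3 members, AT1G31950, AT1G33750 and AT1G66020, against 12.4% of all probe sets. All 3 were lower in the mutant, where 6.04% of all probe sets were lower without overlap. The median change of the 10 was 0.02 beside 0.00 over all probe sets. The adjusted p-values of the 10 ran from 0.403 to 0.973.

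In the overexpressor against wild type 1 of the 10 was called lower (AT3G14540) and 0 higher, beside 0.609% and 0.745% of all probe sets. The median log2 change was 0.09, beside -0.01 over all probe sets, and 4 members did not overlap with wild type, beside 19.5% of probe sets. Against the mutant 1 was called lower (AT3G14540) and 1 higher (AT1G33750), beside 0.857% and 0.971%, with a median change of -0.01, and 3 members did not overlap, beside 20.5%. The call of AT1G33750 was lost in all 6 refits that left out 1 array. The choice of members used the overexpressor arrays, so nothing is read from these counts.

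**Figure D4:**
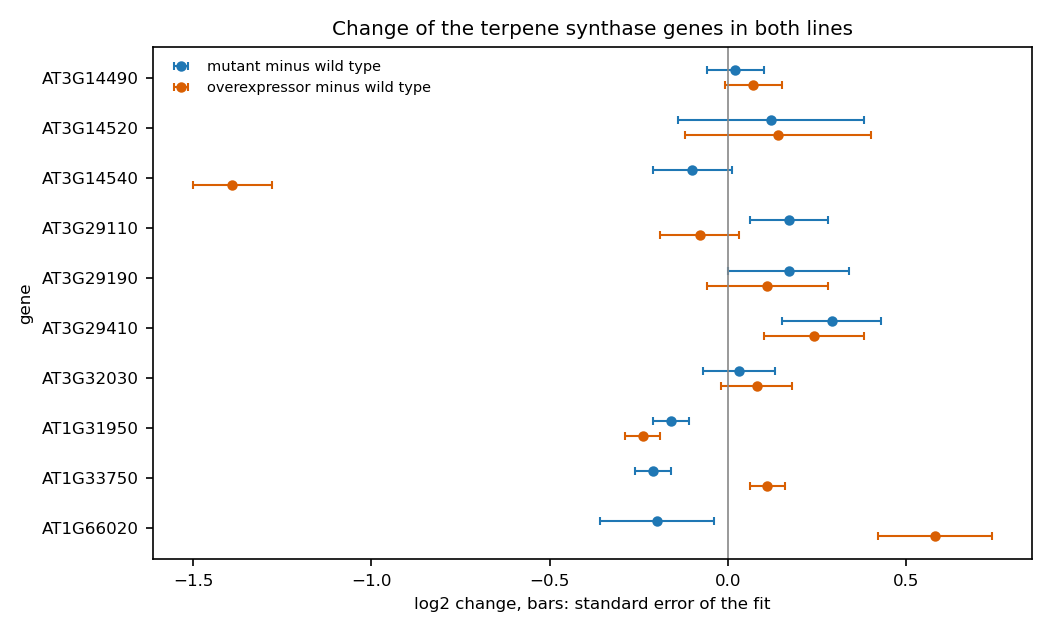
Log2 change (horizontal axis) of each terpene synthase gene in the mutant and the overexpressor, each minus wild type; bars are the SE of the fit. AT3G14540 stands at -1.39 in the overexpressor and -0.10 in the mutant, and the other changes lie between -0.24 and 0.58.

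Of 23 other terpene synthase loci listed, 9 had a named probe set. Of them 1 fell in the overexpressor, beside 0.609% of all probe sets, 0 rose, beside 0.745%, and 8 did not pass. In the mutant 0 passed, beside 0.0234% of all probe sets, with a smallest adjusted p of 0.485 (limma). There 1 gene had an unadjusted limma p below 0.05, as did 8.44% of all probe sets. The gene that fell was AT5G48110, on chromosome 5, the only bright one of the 9, with 10.38, 10.33 and 10.32 in wild type, 10.20, 10.15 and 10.12 in the mutant and 9.85, 9.77 and 9.88 in the overexpressor. No pair of genotypes overlapped. It fell by 0.50 ± 0.05 on the log2 scale in the overexpressor (SE; limma adjusted p = 0.00567), a call kept in all 6 refits without 1 array, and stood at -0.18 ± 0.05 in the mutant (limma adjusted p = 0.485). Against the mutant the overexpressor was lower by -0.32 ± 0.05 (limma adjusted p = 0.0304), a call lost in all 6 such refits. The list was chosen with earlier results of these data known, and 1 locus was dropped from it after the values were seen. The calls of AT5G48110 are therefore a description and support nothing. The other 8 lay below the array median, with values from 2.37 to 5.70, and their largest changes in the overexpressor were 0.33 ± 0.19 for AT1G48800 and -0.32 ± 0.13 for AT1G70080 (SE).

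Upstream genes were thinly covered. Of 9 MEP pathway genes 0 had a named probe set, and of 11 mevalonate pathway genes 2 did: AT1G31910 stood at a log2 change of 0.02 ± 0.05 in both lines, and AT3G54250 at -0.07 ± 0.06 in the mutant and -0.05 ± 0.06 in the overexpressor (SE). Of 17 prenyl diphosphate and squalene synthase genes 6 were measured, with 0 called in any of the 3 comparisons and a median change of -0.18 in the mutant and -0.12 in the overexpressor; 3 and 1 of the 6, in that order, had an unadjusted p below 0.05 in limma, as did 8.44% and 13.6% of all probe sets. Of 19 genes of triterpene cyclases and their clusters 3 were measured and 0 called, with 0 at an unadjusted limma p below 0.05 in the mutant and 1 in the overexpressor. The largest change there was that of AT5G47980, at 4.74, 4.79 and 4.48 in wild type, 4.16, 4.70 and 4.70 in the mutant and 5.05, 5.48 and 5.50 in the overexpressor, a change of 0.67 ± 0.18 (SE; limma adjusted p = 0.16). The 8 CYP72A genes further along that chromosome 3 stretch had no named probe set. Over these lists 20 of 87 genes were measured. Of all probe sets, 0.0234% were called in the mutant against wild type. In the overexpressor 0.745% were called higher and 0.609% lower than in wild type, and 0.971% higher and 0.857% lower than in the mutant.

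**Figure D5:**
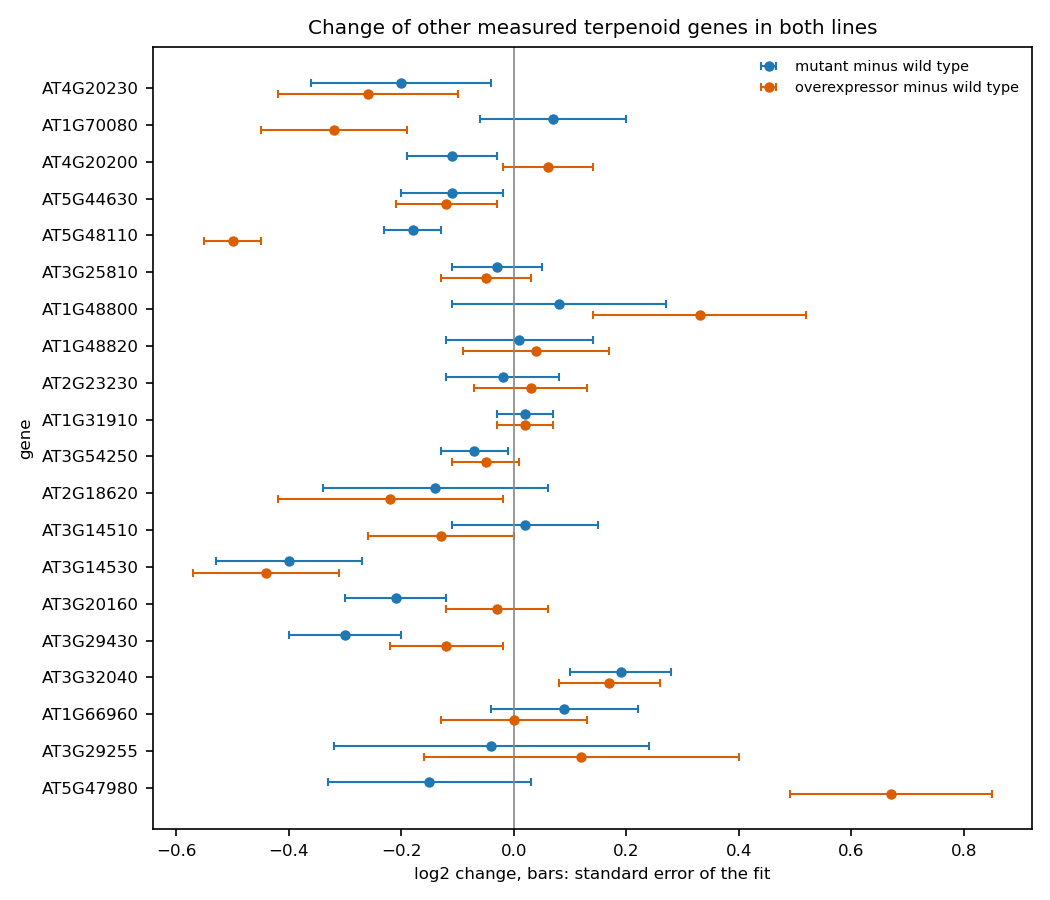
Log2 change (horizontal axis) of the 20 other measured terpenoid genes in the mutant and the overexpressor, each minus wild type; bars are the SE of the fit. AT5G48110 stands at -0.50 in the overexpressor with a narrow bar, and AT5G47980 reaches 0.67 with a wider one.

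The genes whose profile over the 9 arrays was most like that of AT3G14540 were sought among 16694 other probe sets with 1 gene, by the root-mean-square difference between profiles after each mean was subtracted. The closest was KIN2 (AT5G15970), a cold- and abscisic acid-responsive gene, at 0.13 log2 units, followed by AT3G23510 at 0.14, the aldehyde dehydrogenase gene ALDH3F1 (AT4G36250) at 0.17, AT3G15720 at 0.18 and AT5G25490 at 0.19, where the median over all was 0.65. None of the 5 is a terpene synthase gene of the lists used here. KIN2 ran from 11.21 to 11.35 in wild type, 10.78 to 11.26 in the mutant and 9.81 to 10.00 in the overexpressor, and AT3G23510 from 8.24 to 8.45, 8.19 to 8.42 and 7.10 to 7.29. In both, as in AT3G14540, the overexpressor arrays lay below all others while mutant and wild type overlapped. The search used the profile of AT3G14540, so this likeness was fixed by the search and supports nothing. A probe set without any change would stand at 0.65 from AT3G14540, the same as the median. In the overexpressor the log2 changes of the 5 lay between -1.54 and -1.16.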

How the data were processed

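The authors deposited 1 table of log2 values, 38408 probe sets on 9 single-channel arrays. RMA is the only tool named, per the submitters' processing notes, without version or settings. Array medians lay between 5.85 and 5.92, so the values were used as they stand. Arrays have no read depth; the precision is limited by their number.

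Names came from the platform annotation and from RefSeq genes (TAIR10.1), the latter for names and gene order alone: 16722 had 1 gene, of which 16574 matched by gene number, 759 had several and 20927 were not listed. No filter on low values was applied, so all 10 members entered the test.

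Per probe set, limma 3.58.1 in R 4.3.3 (lmFit, eBayes; 6 residual and 1.85 prior degrees of freedom) was fitted to all 9 arrays, with Benjamini-Hochberg adjustment over all probe sets; "called", "rose" and "fell" mean adjusted p below 0.05. The code of the fit was tried on simulated data with known changes larger than most of those given here. How well smaller changes are found was not tested. Named were all members, list genes called or with the largest change in a list, measured neighbours within 5 gene places, and the 5 closest profiles. Members and lists were chosen with earlier results of these data known, and 1 locus was dropped from the other terpene synthases after the values were seen because its place in the family was in doubt. The level of bHLH49 itself was not analysed here.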

Additional observations from a re-analysis of the deposited data

How the results depend on the processing

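With 3 arrays a group, calls over all probe sets moved with the settings. In the mutant against wild type, 9 probe sets were called, 2 with only the 6 arrays compared, 1 with the repeat number as a block and 1 to 6 without 1 array; 0 members and 0 pathway genes were called under any setting, and 3240 probe sets had an unadjusted p below 0.05. In the overexpressor against wild type, 520 became 878 above the 50th percentile of the mean, 798 with eBayes trend and robust, 249 with only the 6 arrays, 200 with the block and 174 to 245 without 1 array. Against the mutant, 702 became 1211, 1107, 260 and 347 under these settings and 295 to 510 without 1 array. The overexpressor change of AT3G14540, which chose the gene, was -1.51 to -1.32 against wild type and -1.41 to -1.22 against the mutant without 1 array. The following counts use the overexpressor arrays and support nothing. Members called in the overexpressor against wild type were 2 instead of 1 above the 50th percentile and with trend and robust, AT1G31950 joining, and 2 without overexpressor replicate 3, AT1G66020 joining (1 to 2 without 1 array). Against the mutant they were 1 instead of 2 with only the 6 arrays and with the block, and 1 to 2 without 1 array, AT1G33750 dropping out in all 6 refits and AT1G66020 joining without overexpressor replicate 3; with trend and robust or arrays centred on their medians they were 3, AT1G66020 joining. Pathway genes called against the mutant were 0 instead of 1 with centred arrays, the 6 arrays, the block or any 1 array left out. The filter removed the 7 dim members. Mutant changes near 0 turned sign: AT3G14490 stood at -0.01 with centred arrays and -0.02 to 0.08 without 1 array, AT3G29190 at -0.01 to 0.31 and AT3G32030 at -0.05 to 0.08. Same-numbered arrays showed no strong shared deviation (correlations of -0.0881 to 0.0318), and the main fit did not pair them. Whether they came from the same batch of plants cannot be settled by such correlations. The cause of these differences was not tested.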
